A study of Mus musculus with 15 samples.

Results

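Complement is a cascade of blood and tissue proteins that tags cells and debris for removal and can open pores in membranes. In the classical pathway the recognition protein C1q activates the proteases C1r and C1s, which cleave C4 and C2 into the enzyme that splits C3. The alternative pathway adds factor B and properdin to amplify that step, the terminal components build the membrane pore, and inhibitors such as C1 inhibitor hold the early proteases in check. The liver makes most circulating complement, while fibroblasts, macrophages and epithelia make some of it locally, and in the ovary it is known from follicular fluid and from the tissue remodelling of ovulation and luteal regression. The genes described here are 9 complement components and regulators of the mouse, C1ra, C1s1, C2, C4b, C3, Cfb, Cfp, C7 and Serping1, found by their symbols among 24656 listed genes. All 9 passed the filter on low values.

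Their RNA was measured in whole ovaries of female UM-HET3 mice, a genetically mixed stock in which no pair of animals is expected to share a genotype. The first group, called Cana below, took canagliflozin from month 6 until month 12 of life, the age of sampling. The other groups were control mice sampled at 12 months and control mice sampled at 6 months, with animals assigned at random. Canagliflozin is a diabetes drug that blocks glucose uptake in the kidney through SGLT2. Each group had 5 libraries, each labelled as a separate sample and, for the 12-month groups, made from 1 ovary of each mouse, so the comparison of Cana with 12-month controls differs in the drug, that of 12-month with 6-month controls in age, and that of Cana with 6-month controls in both.

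The values are normalised reads, that is, a gene's reads scaled by a factor of its library. Recovered depth was 8472205 to 13046600 reads in Cana, 11309530 to 13108281 in 12-month controls and 11750426 to 13629491 in 6-month controls. The labels' protocol states a far lower depth, a difference that was not resolved, so read numbers given here rest on the steps in the deposited values. Folds were taken as differences of log2(value + 1), which understates those of low genes, errors are SD over 5 libraries unless given as SE, and a call is a Benjamini-Hochberg adjusted p under 0.05 in limma over 17569 tested genes. The ovary label was borne out by its markers, since all 7 granulosa, 5 theca, 6 corpus luteum and 8 oocyte markers were measured above the filter. Of 9 liver markers 6 were listed and 3 passed the filter, and Alb, the defining one, was at most 4.47 in any library. Their sum was 146 to 449 in Cana, 137 to 404 in 12-month controls and 164 to 303 in 6-month controls, most of it Apoa1, which averaged 190.5 ± 118 in Cana, 183 ± 118 in 12-month controls and 179.5 ± 56.9 in 6-month controls. Ahsg averaged 62.8 ± 45.4 in Cana and 18.1 ± 6.55 in 6-month controls and was called higher there (limma adjusted p = 0.0227). Whole tissue was used, so fewer cells of a type and less RNA per cell cannot be told apart. The labels' protocol describes RNA extraction for the 12-month groups and names no batch, so age and any difference in preparation cannot be told apart.

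The promoter windows of the genes on which the results turn are shown first. RefSeq windows of 250 bases before to 50 after the start site (GRCm38.p6) were at hand for 5 of the 9 genes. C1ra, C1s1 and C7 are shown because they were called lower below, and C3 because it is the hub on which all pathways meet and was not called. Capitals mark matches to any of 9 motifs searched on both strands. The TATA box was searched as TATAAA. The sites of the immune factors were searched as TTCNNNGAA for STAT proteins and TTGCGNAA for C/EBP proteins, with the interferon response and NF-kB motifs beside them. General sites were searched as TGANTCA for AP-1, held by 7.93% of all windows, and as GGGCGG for Sp1, held by 35.9% of them. Sites of ovarian factors were searched as AAGGTCA for the Nr5a receptors, held by 4.66% of all windows, and as GTAAACA for Foxo proteins, held by 3.55% of them. No marked match overlaps another.
C1ra, chr6:124512371-124512670, plus strand: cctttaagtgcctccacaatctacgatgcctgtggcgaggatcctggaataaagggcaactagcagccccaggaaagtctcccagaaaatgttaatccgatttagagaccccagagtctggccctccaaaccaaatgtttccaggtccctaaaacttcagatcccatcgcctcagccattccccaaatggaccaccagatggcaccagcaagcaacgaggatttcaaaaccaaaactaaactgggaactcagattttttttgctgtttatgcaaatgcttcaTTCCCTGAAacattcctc
C1s1, chr6:124542310-124542609, minus strand: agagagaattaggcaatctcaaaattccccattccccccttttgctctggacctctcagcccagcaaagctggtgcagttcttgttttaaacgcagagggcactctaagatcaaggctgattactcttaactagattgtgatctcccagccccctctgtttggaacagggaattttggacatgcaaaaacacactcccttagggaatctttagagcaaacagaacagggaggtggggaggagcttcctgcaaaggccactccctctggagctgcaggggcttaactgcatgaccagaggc
C7, chr15:5063724-5064023, minus strand: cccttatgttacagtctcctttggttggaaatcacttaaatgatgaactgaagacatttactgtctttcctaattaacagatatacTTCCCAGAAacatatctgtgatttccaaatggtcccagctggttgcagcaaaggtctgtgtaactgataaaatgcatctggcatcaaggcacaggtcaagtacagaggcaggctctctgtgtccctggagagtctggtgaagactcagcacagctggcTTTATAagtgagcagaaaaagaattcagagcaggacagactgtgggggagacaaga
C3, chr17:57228087-57228386, minus strand: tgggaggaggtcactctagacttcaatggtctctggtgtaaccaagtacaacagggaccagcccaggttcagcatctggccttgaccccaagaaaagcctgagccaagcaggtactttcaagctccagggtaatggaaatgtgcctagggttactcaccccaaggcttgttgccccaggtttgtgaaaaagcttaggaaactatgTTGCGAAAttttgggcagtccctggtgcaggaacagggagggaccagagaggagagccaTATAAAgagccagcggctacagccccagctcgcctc

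The STAT letters were found in the windows of C1ra and C7, and 8.47% of 27025 promoter windows hold them. The C3 window holds the C/EBP letters, which 0.807% of all windows hold, and TATAAA, which 14.2% hold and which is also in the C7 window on the minus strand. Counted from the annotated start site, the first marked STAT base is at 32 in C1ra and -164 in C7. That of C/EBP is at -45 in C3, and that of TATAAA is at 14 in C3 and -6 in C7. The STAT letters of C1ra and the TATAAA of C3 thus lie after the start site. Use of any of these sites was not tested. The C1s1 window shown holds none of the 9, so that C1ra and C1s1, whose RNA levels moved alike below, share no searched motif in these windows. The 2 genes are neighbours on chromosome 6 with opposite strands. C2, C4b, Cfb and C3 are on chromosome 17, Serping1 on chromosome 2, C7 on chromosome 15 and Cfp on the X chromosome.

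Per kb of annotated exon, C1s1 and Serping1 were the highest of the 9 genes in both 12-month groups and C7 was the lowest in all 3 groups. The mean level of C1s1 was 539 ± 50.4 normalised reads per kb in Cana, 643 ± 128 in 12-month controls and 860 ± 120 in 6-month controls. In Cana the levels of Serping1 (402 ± 54.6), C2 (309 ± 138), C1ra (239 ± 34.3), Cfp (208 ± 50.3) and C3 (180 ± 79.8 per kb) followed in that order. Further down came C4b at 49.2 ± 19.3, Cfb at 35.4 ± 8.43 and C7 at 7.99 ± 4.08 normalised reads per kb. The 12-month controls had the same order of means, and in 6-month controls C1ra (553 ± 88.2 per kb) stood second, ahead of Serping1 (543 ± 44.5). The ranges over libraries of neighbours in this order overlapped in Cana from C1s1 to C3 and for C4b and Cfb. Between C3 and C4b they did not overlap in Cana, with a lowest C3 library of 100.02 and a highest C4b library of 65.6 per kb. C7 also lay apart from Cfb in Cana, at no more than 13.9 against at least 21.1 per kb.

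**Figure D1:**
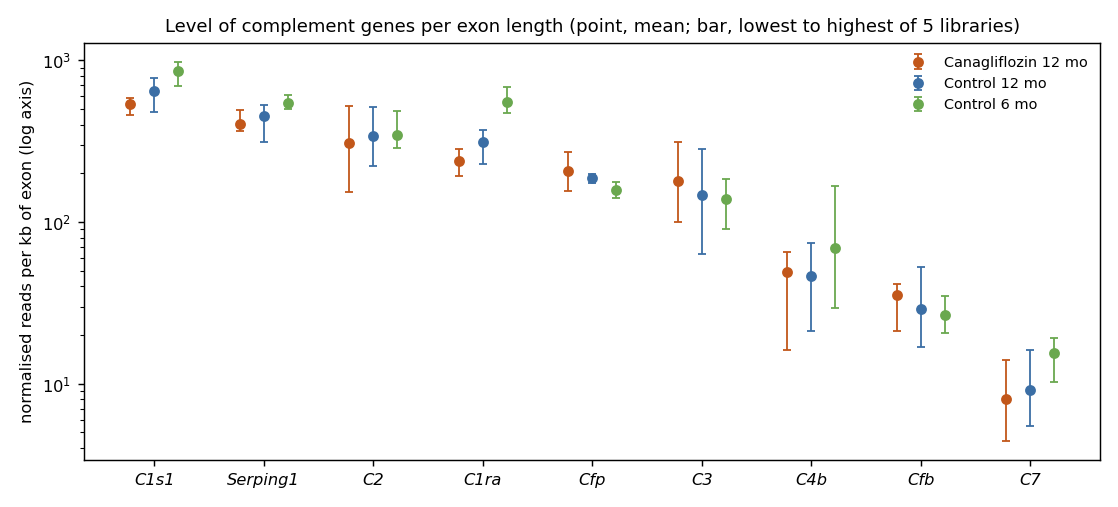
Mean level per gene in normalised reads per kb of exon, on a log axis, for Cana, 12-month controls and 6-month controls, with bars from the lowest to the highest of 5 libraries. Genes are ordered by their mean in Cana, where C1s1 is highest at 539 and C7 lowest at 7.99. C1ra is the gene whose 6-month mean (553) stands farthest above its 12-month means (239 and 312).

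The comparison of 12-month with 6-month controls asked how these transcripts differ with age in untreated ovaries. The classical proteases C1ra and C1s1 fell, and none of the 9 rose. Called lower were 2 of the 9, against 7.01% of all tested genes called lower and 12.4% called in either direction. Of the 9 genes 7 had a negative log2 fold change, and their median was -0.29, while the median over all tested genes was 0.00393.

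C1ra encodes the protease C1r, which autoactivates when C1q binds its target and then cleaves C1s. It measured 912, 1111, 676, 1041 and 911 normalised reads in 12-month controls, against 1489, 1805, 2036, 1407 and 1512 in 6-month controls. All 12-month control libraries were below all 6-month ones, as for 8.07% of tested genes, while 13.7% did not overlap in either direction. C1ra fell to 0.562 of its 6-month level, a log2 fold change of -0.83 with an SE of 0.14 (limma adjusted p = 0.00163). The call held in all 25 alternative settings, with adjusted p from 2.53e-06 to 0.00626.

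C1s1 encodes C1s, the protease that cleaves C4 and C2. It measured 2052, 2358, 1494, 2422 and 1726 normalised reads in 12-month controls, against 2795, 2978, 2447, 2169 and 3068 in 6-month controls. The lowest 6-month library lay within the range of the 12-month controls. C1s1 fell to 0.741 of its 6-month level, a log2 fold change of -0.43 with an SE of 0.14 (limma adjusted p = 0.0471). That call was close to the threshold and was lost in 10 of 15 fits that left out 1 library. Those were the fits without Cana replicates 1, 4 or 5, 12-month control replicates 1, 3 or 5, or 6-month control replicates 1, 2, 3 or 5, with adjusted p from 0.0509 to 0.116. It was also lost in edgeR with DESeq2 size factors (adjusted p = 0.0523), in edgeR on 12 libraries (0.15), with no filter (0.055) and with only the groups compared (0.0656).

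Reads of these proteases can be split with near-identical copies. Of the 50-base words of the longest C1ra transcript, 48.0% also occur in transcripts of C1rb, and for C1s1 and C1s2 the share is 24.3%. The levels of the copies were low beside those of C1ra and C1s1. C1rb averaged 47.6 ± 13.7 normalised reads in 12-month controls and 61.7 ± 27.5 in 6-month controls (limma adjusted p = 0.557). C1s2 averaged 74.1 ± 34.5 in 12-month controls and 120 ± 40.0 in 6-month controls (limma adjusted p = 0.139).

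The stromal markers moved alongside the proteases. Their summed level was 15984 to 31375 normalised reads in 12-month controls and 33901 to 45216 in 6-month controls, without overlap. Of the 8 markers, Col1a1 and Col1a2, chains of type I collagen, fell (log2 fold change -0.77 and -0.81, limma adjusted p = 0.0452 and 0.00999) and 7 of 8 were negative. Dcn, a proteoglycan of the same cells, measured 4228 ± 1004 in 12-month controls and 4363 ± 967 in 6-month controls. The macrophage marker sum was 2553 to 6363 in 12-month controls and 4300 to 7485 in 6-month controls, and 2 of 12 markers, Adgre1 and Csf1r, fell. Some markers of other cell types rose, where 5.4% of all tested genes were called higher and 7.01% lower. The B and plasma cell sum was 192 to 547 in 12-month controls and 48.7 to 61.0 in 6-month controls, without overlap, and 2 of 4 tested markers, the antibody genes Jchain and Igkc, rose. The corpus luteum sum averaged 75930 ± 30357 in 12-month controls and 40880 ± 19447 in 6-month controls, and 1 of 6 markers, the prolactin receptor gene Prlr, rose. Granulosa markers Nr5a2 and Inhba, 2 of 7, also rose. The T cell gene Cd3g rose, 1 of 5 tested markers, of which 3 were positive and 2 negative. The surface epithelium gene Muc16 rose, 1 of 8 markers, of which 3 were positive and 5 negative. The endothelial gene Cdh5 fell, 1 of 7 markers, of which 3 were positive and 4 negative. The part of these cell types in the result for C1ra and C1s1 was not tested.

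**Figure D2:**
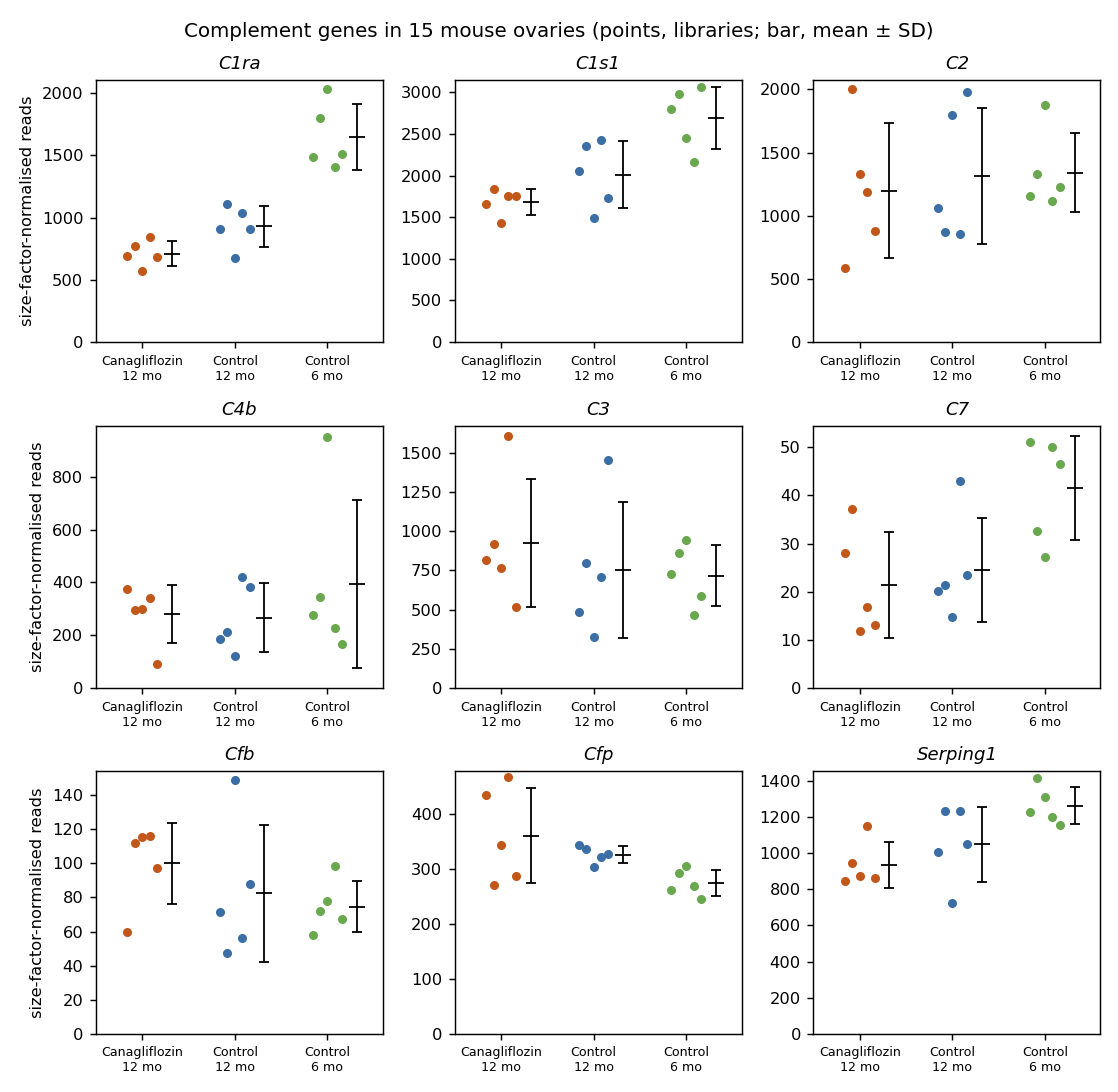
Normalised reads of each of the 9 genes in every library of Cana, 12-month controls and 6-month controls (points), with mean and SD beside them (bars), on linear axes from 0. C1ra lies at 1111 or less in all 12-month libraries and at 1407 or more in all 6-month libraries, while C3 and C4b spread widely within every group.

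The other 7 genes were not called between 12-month and 6-month controls. Serping1 encodes C1 inhibitor, which removes C1r and C1s from the active complex. It averaged 1050 ± 208 normalised reads in 12-month controls and 1263 ± 104 in 6-month controls (log2 fold change -0.29, 95% interval -0.57 to -0.01, limma adjusted p = 0.168). C7, a terminal component that anchors the growing pore in the membrane, averaged 24.5 ± 10.9 in 12-month controls and 41.6 ± 10.9 in 6-month controls (log2 fold change -0.79, 95% interval -1.49 to -0.08, limma adjusted p = 0.140). At 16 to 59 reads per library in these groups it was the most thinly covered of the 9.

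Cfp encodes properdin, which stabilises the alternative pathway's C3-cleaving enzyme. It measured 344, 337, 303, 322 and 327 normalised reads in 12-month controls, against 262, 293, 305, 270 and 245 in 6-month controls. The groups overlapped by a single library on each side, and the difference did not pass (log2 fold change 0.25, 95% interval -0.04 to 0.54, limma adjusted p = 0.245). Cfb, the protease of the alternative pathway, averaged 82.4 ± 40.1 in 12-month controls and 74.7 ± 15.1 in 6-month controls.

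The central components had no detectable difference with age, and their intervals were wide. C3, cleaved by every pathway, averaged 753 ± 432 in 12-month controls and 716 ± 195 in 6-month controls (log2 fold change -0.07, 95% interval -0.84 to 0.71, limma adjusted p = 0.934). C4b, which with C2 forms the classical C3-cleaving enzyme, averaged 265 ± 131 in 12-month controls and 394 ± 318 in 6-month controls (log2 fold change -0.43, 95% interval -1.48 to 0.62, limma adjusted p = 0.619). C2 averaged 1314 ± 536 in 12-month controls and 1342 ± 311 in 6-month controls (log2 fold change -0.10, 95% interval -0.76 to 0.56, limma adjusted p = 0.876). Of the 50-base words of the longest C4b transcript 35.2% also occur in transcripts of C4a, so reads may be divided between them. C4a averaged 47.0 ± 11.5 in 12-month controls and 44.5 ± 11.2 in 6-month controls.

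Cana and 12-month controls were of the same age and differed in the drug. None of the 9 genes was called by limma, edgeR or DESeq2, and 1 of them, C1ra, had an unadjusted p under 0.05. The background was nearly empty too, since 1 of 17569 genes (0.00569%) was called by limma, 9 by edgeR with TMM and 63 by DESeq2 on recovered reads. No gene among the 9 had groups that did not overlap, against 1.05% of all tested genes (0.586% higher and 0.467% lower in Cana).

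C1ra measured 695, 769, 571, 845 and 682 normalised reads in Cana, against 912, 1111, 676, 1041 and 911 in 12-month controls. A single control library, replicate 3, lay among the Cana values. That library was also the lowest of its group for C1s1, Serping1, C3, C4b, C7 and Cfp. The log2 fold change of C1ra was -0.38 (95% interval -0.68 to -0.08, unadjusted p = 0.0164, limma adjusted p = 0.473, and 0.172 to 0.746 over the alternatives). C1s1 measured 1659, 1834, 1428, 1758 and 1756 in Cana, against 2052, 2358, 1494, 2422 and 1726 in 12-month controls. The groups overlapped, and Cana replicate 3 lay below every 12-month control (log2 fold change -0.23, 95% interval -0.52 to 0.05, limma adjusted p = 0.606). The stromal sum was 15477 to 24586 in Cana and 15984 to 31375 in 12-month controls, with 7 of 8 markers negative and none called.

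The remaining intervals bound how large a drug effect could be missed. For Cfp, at 361 ± 87.3 in Cana and 326 ± 15.6 in 12-month controls, the fold change was 1.08 with a 95% interval of 0.887 to 1.32. For Serping1, at 935 ± 127 in Cana and 1050 ± 208 in 12-month controls, it was 0.901 with an interval of 0.742 to 1.09. C3 averaged 924 ± 410 in Cana and 753 ± 432 in 12-month controls, a log2 fold change of 0.38 whose interval as a fold ran from 0.758 to 2.22. For C4b, at 280 ± 110 in Cana and 265 ± 131 in 12-month controls, the interval ran from 0.510 to 2.19. C2 (1198 ± 535 in Cana, 1314 ± 536 in 12-month controls) had a fold change of 0.897 and an interval of 0.569 to 1.42. Cfb (99.97 ± 23.8 in Cana, 82.4 ± 40.1 in 12-month controls) and C7 (21.4 ± 10.9 in Cana, 24.5 ± 10.9 in 12-month controls) had fold changes of 1.28 and 0.852. A doubling of C3 or C4b was thus within what these libraries allow, and a doubling of C1s1, Cfp or Serping1 was not.

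**Figure D3:**
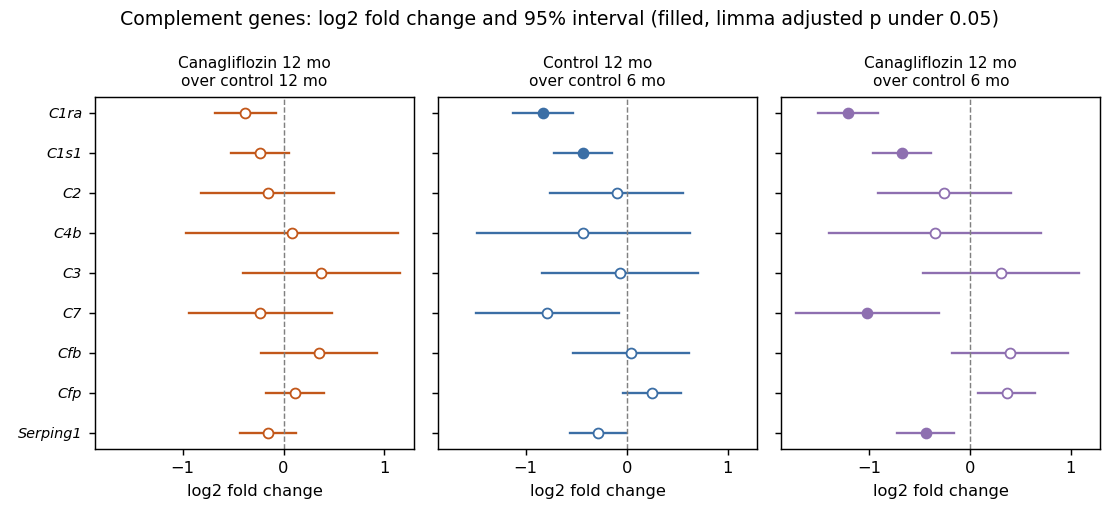
Log2 fold change of each of the 9 genes with its 95% interval in the comparisons of Cana with 12-month controls, 12-month with 6-month controls and Cana with 6-month controls. Filled points were called by limma (adjusted p under 0.05), which were none in the first panel, C1ra and C1s1 in the second, and C1ra, C1s1, C7 and Serping1 in the third.

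Cana and 6-month controls differ in both age and drug. This comparison shares its 6-month controls with the age comparison, so the values stand side by side and neither supports the other. C1ra, C1s1, Serping1 and C7 were lower in Cana, 4 of 9 called lower against 14.9% of all tested genes called lower, with 28.4% called in either direction. The median log2 fold change of the 9 was -0.35, and that of all tested genes 0.00973.

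C1ra averaged 712 ± 102 normalised reads in Cana and 1650 ± 263 in 6-month controls, without overlap (0.433-fold, a log2 fold change of -1.21 with an SE of 0.14, limma adjusted p = 4.78e-05). C1s1 averaged 1687 ± 158 in Cana and 2691 ± 377 in 6-month controls, again without overlap (0.630-fold, a log2 fold change of -0.67 with an SE of 0.14, limma adjusted p = 0.00202). Both calls held in all 25 alternative settings.

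Serping1 measured 847, 945, 872, 1152 and 861 in Cana, against 1229, 1419, 1310, 1199 and 1158 in 6-month controls. The highest Cana library lay just under the lowest 6-month one, so Serping1 was the third of the 9 whose groups did not overlap, as for 10.4% of tested genes on the lower side and 18.5% in either direction. Serping1 fell to 0.738 of the 6-month level, a log2 fold change of -0.44 with an SE of 0.13 (limma adjusted p = 0.0207), a call lost without 6-month control replicate 2 (adjusted p = 0.0540).

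C7 measured 28.0, 37.2, 11.8, 16.9 and 13.0 in Cana, against 51.2, 32.7, 27.3, 50.02 and 46.6 in 6-month controls. The groups overlapped in Cana replicates 1 and 2, and counts were low, from 12 to 25 reads in Cana and 28 to 59 in 6-month controls. C7 was at 0.494 of the 6-month level, a log2 fold change of -1.02 with an SE of 0.33 (limma adjusted p = 0.0324). The call was lost without Cana replicates 3, 4 or 5 or 6-month control replicates 1, 4 or 5 (adjusted p = 0.0649 to 0.0861), and in edgeR on 12 libraries (log2 fold change -0.66, adjusted p = 0.289).

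Cfp lay on the other side. It measured 436, 271, 343, 467 and 288 in Cana, and its difference from 6-month controls was just short of the threshold (log2 fold change 0.36, SE 0.13, limma adjusted p = 0.0541). edgeR and DESeq2 on recovered reads called it higher (adjusted p = 0.0345 and 0.0213), as did edgeR with DESeq2 size factors (0.0356), a filter of 50 (0.0489) and the fits without Cana replicate 2 (0.0145) or 5 (0.0251). C3, C4b, C2 and Cfb were not called, with log2 fold changes of 0.31, -0.35, -0.25 and 0.40 (limma adjusted p = 0.548, 0.626, 0.565 and 0.287). Without 6-month control replicate 3, whose C4b was 952, that of C4b was 0.04.

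Markers moved with this comparison as well. The stromal sum was 15477 to 24586 in Cana and 33901 to 45216 in 6-month controls, and 4 of 8 stromal markers fell (Col1a1, Col1a2, Dpt and Lum), with all 8 negative. The macrophage sum was 2718 to 5234 in Cana and 4300 to 7485 in 6-month controls, and 4 of 12 macrophage markers fell (Adgre1, Csf1r, Cd163 and Mrc1). The B and plasma cell sum was 328 to 521 in Cana and 48.7 to 61.0 in 6-month controls, and Jchain and Igkc rose. Of 6 corpus luteum markers Prlr and Sfrp4 rose and Parm1 fell, and of 7 endothelial markers Esam and Emcn rose and Cdh5 fell. Nr5a2 and Inhba of 7 granulosa markers, Cd3g of 5 T cell markers and Muc16 of 8 surface epithelium markers rose here too. Of 11 interferon-induced genes Gbp2 fell, with 5 positive and 6 negative. Over all tested genes 13.5% were called higher and 14.9% lower. Of 8 tested acute-phase and NF-kB genes 7 were positive, and Lcn2 and Saa3 rose. That list summed to 1161 to 2886 in Cana and 851 to 1086 in 6-month controls, without overlap. In 12-month controls it summed to 1076 to 1419, and all 8 genes were positive against 6-month controls, with 0 called. Between Cana and 12-month controls 7 of the 8 were positive and 1 negative, again with 0 called. The part of these cell types and genes in the complement differences was not tested.

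The spread between mice differed strongly among the 9 genes. The coefficient of variation within a group was 9.35 to 19.9% for C1s1 and 8.20 to 19.8% for Serping1. For C3 it was 27.2 to 57.4% and for C4b 39.3 to 80.9%. Cfp had 4.79 to 24.2% and C2 had 23.2 to 44.6%, so the genes did not fall into 2 separate classes. C4b ran from 92.1 to 374 in Cana, from 121 to 423 in 12-month controls and from 168 to 952 in 6-month controls. C3 ran from 514 to 1609 in Cana, from 324 to 1452 in 12-month controls and from 468 to 946 in 6-month controls. High libraries of both genes were found at either age and with or without the drug.

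After these values were seen, 9 relations between members were chosen for permutation tests on the log2(value + 1) scale. Correlations of all pairs of members were computed too, and p-values adjusted over the 9 relations do not count that choice. Some pairs that were not chosen were as strong once group means were taken out. Over 15 libraries that r was -0.73 for C1s1 and Cfb, 0.73 for C3 and Serping1 and 0.67 for C1ra and C3. C3 and C4b varied together over all 15 libraries (Pearson r = 0.66, permutation p = 0.0078, adjusted over the 9 relations 0.0176, Spearman rho = 0.71, permutation p = 0.00391, adjusted 0.0117). Without the 2 libraries farthest from the median of C3, r was 0.64, and within Cana, 12-month controls and 6-month controls it was 0.72, 0.81 and 0.78. That choice went by C3 alone and kept both libraries flagged below for C4b (952 and 92.1). Whether the relation rests on those libraries was not tested. C2 and Cfb, which are adjacent genes on chromosome 17, had r = 0.57 (permutation p = 0.0283, adjusted 0.0509) and rho = 0.60 (permutation p = 0.0211, adjusted 0.0381). Within groups that r was 0.84 in Cana, 0.85 in 12-month controls and 0.06 in 6-month controls, and it was 0.48 without the 2 libraries farthest from the median of C2. The annotated read-through gene Gm20547 overlaps both C2 and Cfb on the same strand and averaged 5.47, 11.7 and 3.66 in Cana, 12-month and 6-month controls. C2 and Cfb share no 50-base word. The 4 pairs that join C2 or Cfb to C3 or C4b had r from -0.24 to 0.21, with adjusted p from 0.571 to 0.686.

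C1ra separated by age, so its relations were taken in the 10 libraries of 12 months alone. There C1ra and C1s1 had r = 0.90 (permutation p = 0.00028, adjusted 0.00252) and rho = 0.88 (permutation p = 0.00169, adjusted 0.00950), with r = 0.81 without the farthest 2. C1ra and Serping1 had r = 0.86 (permutation p = 0.00162, adjusted 0.00729) and rho = 0.87 (permutation p = 0.00211, adjusted 0.00950), with r = 0.90 without the farthest 2. C1s1 and Serping1 had r = 0.81 (permutation p = 0.00525, adjusted 0.0158) and rho = 0.77 (permutation p = 0.0132, adjusted 0.0297), and r was 0.59 without the farthest 2. These values pool Cana and 12-month controls, and the permutations did not keep the groups apart. Within Cana r was 0.85 for C1ra and C1s1, 0.77 for C1ra and Serping1 and 0.39 for C1s1 and Serping1. Within 12-month controls the same pairs had r of 0.92, 0.99 and 0.91. Within the 6-month controls r was 0.09 for C1ra and C1s1, 0.74 for C1ra and Serping1 and 0.15 for C1s1 and Serping1, over 5 libraries each.

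The genes whose pattern over the 15 libraries was most like the mean of the 9 standardised genes were Tapbp (Pearson r = 0.94), Tmco4 (0.91), Cygb (0.90), H2-T10 (0.90) and Steap3 (0.89). Tapbp encodes tapasin, which loads peptides on MHC class I, Cygb encodes cytoglobin, and Steap3 is a metalloreductase. None of these 5 was called between Cana and 12-month controls or between 12-month and 6-month controls, and Tapbp and Steap3 were called lower in Cana than in 6-month controls (limma adjusted p = 0.0422 and 0.0326).

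The rest of the pathway was described by a list of 50 further complement genes, of which 43 were listed and 32 tested. Between 12-month and 6-month controls, 3 rose (Masp1, Csmd1 and Cfd), against 5.4% of tested genes called higher, and none fell, against 7.01% called lower. The list's median log2 fold change was -0.12. Between Cana and 6-month controls the same 3 were called higher, against 13.5% of tested genes, with a median over the list of -0.02. C3ar1 alone fell, 1 of 32, against 14.9% of tested genes called lower. None of the 32 was called between Cana and 12-month controls by limma, edgeR or DESeq2, and 1 of them, C3ar1, had an unadjusted p under 0.05. The median there was 0.02.

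Masp1, a protease of the lectin pathway, measured 963, 522, 777, 595 and 649 normalised reads in 12-month controls, against 455, 399, 411, 173 and 387 in 6-month controls. The groups did not overlap, as for 5.63% of tested genes on the higher side, and Masp1 rose 1.97-fold, a log2 fold change of 0.98 with an SE of 0.23 (limma adjusted p = 0.0124). In Cana it averaged 800.5 ± 138 against 365 ± 110 in 6-month controls (2.28-fold, limma adjusted p = 0.00172), again without overlap, as for 8.05% of tested genes on the higher side. Both calls held in all 25 alternative settings. Masp2, the lectin pathway protease that cleaves C4 and C2, was picked after its values were seen and averaged 69.2 ± 26.9 in 12-month controls and 17.1 ± 21.7 in 6-month controls (limma adjusted p = 0.0551, and under the threshold in 7 of 25 alternatives). On the lower side was Cd93, a surface protein once described as a C1q receptor and also picked after its values were seen. It averaged 796 ± 147 in 12-month controls and 1126 ± 98.5 in 6-month controls, without overlap, as for 8.07% of tested genes on the lower side. Its log2 fold change was -0.52 (limma adjusted p = 0.0543, likewise under the threshold in 7 of 25 alternatives).

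Cfd encodes factor D, also called adipsin, the fat cell product that activates factor B. It measured 112, 294, 2.75, 55.4 and 19.1 in 12-month controls, against 0.948, 3.63, 1.95, 6.78 and 0.991 in 6-month controls. A 12-month library, replicate 3, was as low as the 6-month ones, and Cana ranged from 3.00 to 101. Cfd was higher in 12-month than in 6-month controls, by 3.68 on the log2 scale with an SE of 1.04 (limma adjusted p = 0.0314). It was also higher in Cana than in 6-month controls, by 3.09 with the same SE of 1.04 (limma adjusted p = 0.0375). The age call was lost in 7 of 15 fits without 1 library, those without 12-month control replicates 1, 2 or 4 or 6-month control replicates 1, 2, 3 or 5 (adjusted p = 0.0556 to 0.0763), and with no filter (0.0515). The call in Cana was lost in 8 such fits, without Cana replicates 1, 2, 3 or 4 or 6-month control replicates 1, 2, 3 or 5 (adjusted p = 0.0569 to 0.0884). It was also lost with a pseudocount of 5 (0.0613), with no filter (0.0580) and in edgeR on 12 libraries (0.0769). Of 6 tested fat cell markers, 4 rose in the same age comparison, and the fat hormone Adipoq averaged 26.1 ± 26.9 in 12-month controls and 0.897 ± 1.04 in 6-month controls. The other 2 had negative log2 fold changes and were not called, among them Lipe (643 ± 109 in 12-month and 778 ± 81.8 in 6-month controls). Between Cana and 6-month controls the same 4 rose, and the fat cell marker Plin1 fell. The sum of the fat cell markers was 1074 to 1590 in 12-month controls and 1013 to 1316 in 6-month controls. The part of fat tissue in the Cfd result was not tested.

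Csmd1, a membrane inhibitor of complement, averaged 252 ± 83.9 in 12-month controls and 122 ± 24.1 in 6-month controls (log2 fold change 0.98, SE 0.26, limma adjusted p = 0.0231). That call was lost without 12-month control replicates 2, 3 or 5 or 6-month control replicates 2 or 3 (adjusted p = 0.0534 to 0.0622). In Cana it averaged 214 ± 63.3 (log2 fold change 0.76 over 6-month controls, limma adjusted p = 0.0409), lost without Cana replicates 1 to 4 or 6-month control replicates 1 to 3 (adjusted p = 0.0683 to 0.0936). With the replicate number as a block neither Csmd1 call held (adjusted p = 0.0550 and 0.0783).

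**Figure D4:**
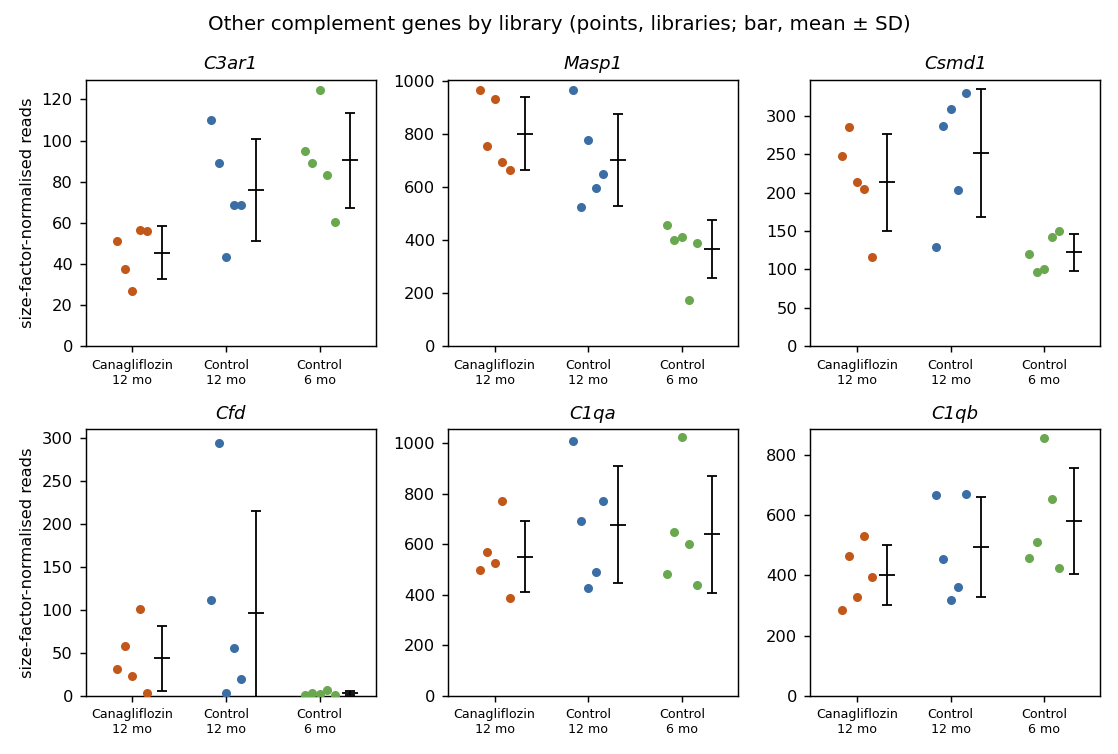
Normalised reads of 6 further complement genes in every library of Cana, 12-month controls and 6-month controls (points), with mean and SD beside them (bars), on linear axes from 0. Masp1 is at 522 or more in all 12-month libraries and at 455 or less in all 6-month ones, Cfd is above 10 only in 12-month libraries, and C1qa and C1qb overlap between all groups.

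C3ar1, the receptor for the C3a fragment, measured 51.1, 37.2, 26.6, 56.5 and 56.0 in Cana, against 94.8, 89.0, 125, 83.1 and 60.5 in 6-month controls. The groups did not overlap, as for 10.4% of tested genes on the lower side and 18.5% in either direction. C3ar1 fell to 0.503 of the 6-month level, a log2 fold change of -0.99 with an SE of 0.27 (limma adjusted p = 0.0117). The call held in all 25 alternative settings. In 12-month controls it averaged 75.9 ± 25.0, and the log2 fold change of C3ar1 in Cana against them was -0.71 (limma adjusted p = 0.473).

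The C1q chains, which recognise targets for C1ra and C1s1, come mainly from macrophages and were called in no comparison. C1qa averaged 550 ± 140 in Cana, 677 ± 233 in 12-month controls and 639 ± 231 in 6-month controls. C1qb and C1qc had log2 fold changes of -0.25 and -0.12 in 12-month against 6-month controls (limma adjusted p = 0.548 and 0.812). The macrophage genes Adgre1 and Csf1r, by contrast, fell in that comparison (log2 fold change -1.31 and -1.06, limma adjusted p = 0.00508 and 0.0105), and the difference between them and C1q was not tested. The membrane regulators Cd55, Cd59a and Cr1l, which protect host cells, and the receptor C5ar1 were also called in no comparison. Hc, the mouse C5 gene, averaged 36.2 ± 24.6, 48.9 ± 25.2 and 40.0 ± 18.7 in Cana, 12-month and 6-month controls. C6 and Cfi, a terminal component and the protease that inactivates C3b, did not pass the filter on low values, with at most 7.82 and 10.9 normalised reads in any library.

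**Figure D5:**
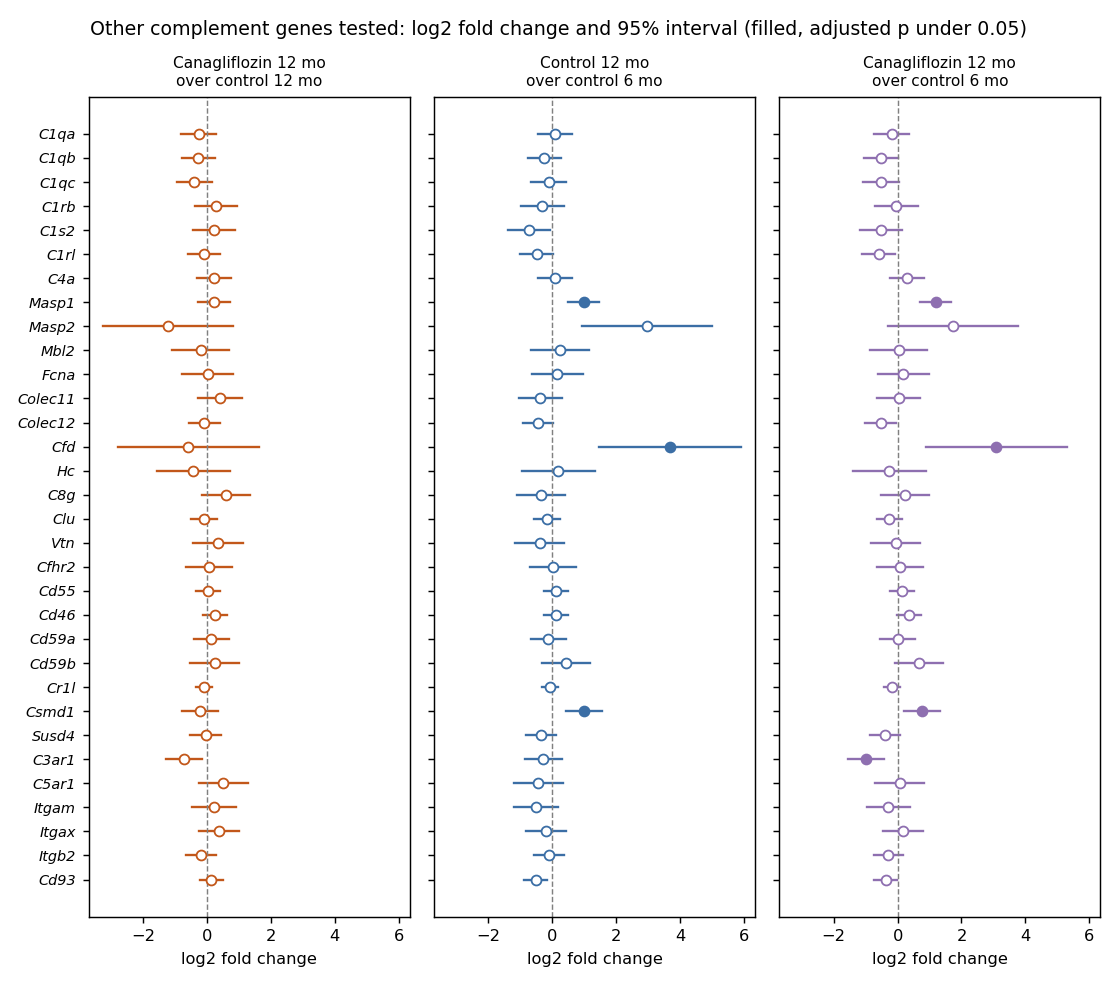
Log2 fold change with 95% interval of the 32 tested further complement genes in the comparisons of Cana with 12-month controls, 12-month with 6-month controls and Cana with 6-month controls. Filled points were called by limma (adjusted p under 0.05). The first panel has none, the second has Masp1, Cfd and Csmd1 on the right, and the third has these 3 on the right and C3ar1 on the left.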

How the data were processed

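Values came as 1 deposited table of signal, and its low values step by a fixed amount in each library, as read numbers scaled by the authors with a factor per library would. Per the submitters' processing notes Partek 11.0 was used, with mm39 as the build. How reads were aligned, counted and scaled, and on which annotation and strand, is not given in the sources used here. In 12 libraries the step per read differed from 1 by over 0.01, in 3 (Cana replicates 4 and 5, 6-month control replicate 5) it did not. In each library at least 99.99% of values came out whole (tolerance 0.1 read). Libraries of a group all differed from each other beyond counting noise.

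With limma 3.58.1 (R 4.3.3, trend and robust), log2(value + 1) was fitted in all 15 libraries at once, for genes reaching 10 in 5 or more of them. The fit was also run on simulated reads, drawn gene by gene without shifts shared within a library, and no result here rests on that run. Alternatives were edgeR 4.0.16 and DESeq2 1.42.0 on recovered reads, pseudocounts of 0.5 and 5, other filters, a block on replicate number, a fit of just the groups compared, and each library left out. edgeR on 12 libraries, without the 3 named above, was added after seeing the data, and the other count tests include those 3. Relations used 100000 permutations. Exon lengths came from GENCODE M21 (GRCm38), another build than the notes name, so they are approximate.

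The members and lists were chosen with earlier results of these data known. All 9 members are named, with every further listed complement gene called and a fixed set of others, of which 1 is not reported here, and the 5 named genes most like the members' mean. The cell type values are from marker lists, and the acute-phase and interferon-induced values are from gene lists.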

Additional observations from a re-analysis of the deposited data

Results flagged for a closer look

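In 27 sets of 5 libraries (9 genes in 3 groups), 3 had a library whose gap to its nearest neighbour exceeded Dixon's 95% limit, and chance gives about 1 in 20. C4b in 6-month control replicate 3 was 952 normalised reads, with a gap of 0.776 of the group's range. C2 in the same library was 1878, with a gap of 0.716. C4b in Cana replicate 5 was 92.1, the lowest of its group, with a gap of 0.721. 6-month control replicate 3 also had the highest C1ra (2036) and C3 (946) of its group. 12-month control replicate 3 was not flagged but had the lowest C1ra (676), C1s1 (1494), Serping1 (727) and C3 (324) of its group. It also had the lowest C4b (121), C7 (14.7) and Cfp (303) there, and the highest Cfb (149). The sum of 5 red cell markers ran from 168 to 18087 in 12-month controls, with a median of 529.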

How the results depend on the processing

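None of the 9 complement genes was called between Cana and 12-month controls in any of 25 alternatives. Over all genes that comparison had 1 call, against 9 in edgeR with TMM or with DESeq2 size factors, 63 in DESeq2, 23 in edgeR on 12 libraries, 2 with no filter and 0 with only the groups compared. Leaving out 1 library gave 0 to 37, the most without Cana replicate 5. Of the 9, the 2 called between 12-month and 6-month controls became 1, C1ra, in edgeR with DESeq2 size factors, in edgeR on 12 libraries, with no filter and with only the groups compared, and 1 to 2 with a library left out. The 4 called between Cana and 6-month controls became 3 to 5 with a library left out. The 3 further complement genes called between 12-month and 6-month controls were 5 with a filter of 50 or only the groups compared, and 1 to 5 with a library left out. Between Cana and 6-month controls 4 became 2 to 5, with 2 without Cana replicates 1, 3 or 4 or 6-month control replicates 1, 2 or 3. Signs turned only for values that were not called. Between Cana and 12-month controls, edgeR on 12 libraries gave log2 fold changes of 0.0025 for C2 and 0.056 for C7, and leaving out a library gave -0.37 to 0.069 for C2 and -0.16 to 0.44 for C4b. Between 12-month and 6-month controls, C3 was 0.078 in edgeR with TMM, 0.076 in DESeq2, 0.077 in edgeR with DESeq2 size factors and 0.019 in edgeR on 12 libraries. With a library left out there, C2 ran from -0.27 to 0.032, C3 from -0.35 to 0.19 and Cfb from -0.20 to 0.21. Between Cana and 6-month controls C4b ran from -0.58 to 0.042. The cause of these changes was not tested. Libraries with the same replicate number did not deviate together (r from -0.30 to 0.25 over 15 pairs). With the replicate number as a block, 3 genes were called between Cana and 12-month controls and 2126 between 12-month and 6-month controls, and the calls of the 9 were 0, 2 and 4 as before. Depth limits C7 most, at 12 to 59 reads per library.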
